A study of Mus musculus with 6 samples.

Results

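MicroRNAs (miRNAs) encoded by the Mir99b, Mirlet7e and Mir125a gene cluster, and their paralogs in the miR-99 and miR-125 families, were examined in mouse macrophages. The cluster gives mmu-let-7e, mmu-miR-99b, mmu-miR-125a-5p and mmu-miR-125a-3p, and the paralogs are mmu-miR-99a, mmu-miR-100 and mmu-miR-125b-5p, written without the species prefix from here on. These 7 were taken by name from the 611 mouse miRNAs on the array, and all 7 were present. Of these, 5 were among the 135 miRNAs that passed the filter for testing, namely a signal well above background on at least 3 of the 6 arrays. miR-125a-3p and miR-100 did not pass it. Macrophages were grown from bone marrow of C57BL/6 females, and 3 KO samples were set against 3 WT samples. KO mice were MxCre-RBP-Jf/f, and the mice labelled WT were, per the protocol, MxCre-RBP-Jf/+, so that both groups carried Cre and at least 1 floxed allele of RBP-J. Mx-Cre is driven by an interferon-responsive promoter and had been switched on with poly(I)-poly(C) in both groups, and all cells received lipopolysaccharide (LPS) for 24 h. The labels give neither the age of the mice nor the origin of the numbered replicates, which may share an animal or a culture. All p-values therefore describe the spread between these samples only. The arrays shared 1 slide on which each row held 1 genotype, so slide row and genotype cannot be told apart. The array holds no probe for RBP-J mRNA, and the deletion was not checked here.

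Notch receptors, once cleaved, act on their target genes by way of RBP-J, which binds DNA. A miRNA guides silencing complexes to mRNAs chiefly through its seed, the bases near its 5′ end, and miRNAs with 1 seed are expected to share many targets. Genes of the miR-99, let-7 and miR-125 families lie together at 3 places in the mouse genome, where a shared primary transcript can give rise to all of them. In macrophages, let-7e is known as a regulator of Toll-like receptor 4, miR-125b as a modulator of activation and of tumour necrosis factor, and miR-99 family members as regulators of mTOR. Published work links miR-125a to Notch signalling in macrophages and may include the present arrays, so the direction of its difference here is not independent evidence.

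The mature sequences show which miRNAs share a seed (bases 2 to 8, in capitals). They are from RefSeq, build GRCm38.p6, each written 5′ to 3′. The first 4 come from the cluster on chromosome 17, whose hairpin genes Mir99b, Mirlet7e and Mir125a are consecutive and lie within the gene Spaca6.
miR-99b: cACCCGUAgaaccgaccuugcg
let-7e: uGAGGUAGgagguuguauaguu
miR-125a-5p: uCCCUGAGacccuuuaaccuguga
miR-125a-3p: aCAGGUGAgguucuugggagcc
miR-99a: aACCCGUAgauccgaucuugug
miR-100: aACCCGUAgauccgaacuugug
miR-125b-5p: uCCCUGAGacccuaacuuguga
let-7a: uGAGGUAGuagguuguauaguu
let-7c: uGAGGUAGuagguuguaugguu
On the plus strand of chromosome 17, miR-99b lies at chr17:17830194-17830215, let-7e at chr17:17830366-17830387 and miR-125a-5p at chr17:17830817-17830840. miR-99a (chr16:77598940-77598961) stands beside let-7c and a copy of miR-125b on chromosome 16. miR-100 (chr9:41531437-41531458) stands beside a let-7a gene and the other copy of miR-125b (chr9:41581940-41581961) on chromosome 9, within the long non-coding RNA gene Mir100hg.

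Paralogs differ by few bases outside the seed. Counted from 1 at the 5′ end, miR-99b differs from miR-99a by 4 substitutions (C1A, A11U, C16U and C21U), and miR-99a from miR-100 by 1 (U16A). let-7e differs from let-7a by G9U alone and from let-7c by G9U and A19G. miR-125a-5p, of 24 bases, and miR-125b-5p, of 22 bases, share their first 13 and last 5 bases. The array reports each through its own probes, and probes differ in how well they bind. A ratio of 2 probes' signals is therefore not a ratio of molecules, and only its change between arrays is read below. Probe sequences were not at hand, so binding of a paralog to the probes of another could not be checked.

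The markers on the array went with myeloid cells, and the lists could not tell macrophages from other myeloid cells. All 6 macrophage and myeloid markers (miR-223, miR-142-3p, miR-142-5p, miR-155, miR-146a and miR-21) were well above background on all 6 arrays, and their summed scaled signal was 127.1 to 152.3 on KO and 125.2 to 150.2 on WT arrays. The lymphoid, erythroid, endothelial or platelet, stromal, epithelial, muscle, liver and neural markers on the array were well above background on none, miR-143, miR-145 and miR-199a of stromal cells among them. Arrays of KO samples were dimmer. The 75th percentile of intensity over the 200 probes seen on every array was 186 to 227 units on KO and 243 to 352 units on WT arrays. Intensities were divided by that percentile and given on the log2 scale, where 0 marks the percentile, and a floor of -4.32 stood for dim signals.

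In KO and WT macrophages the 3 guide miRNAs of the chromosome 17 cluster were measured on every array. let-7e had an intensity of 200, 180 and 222 units on KO arrays 1, 2 and 3, against 543, 250 and 401 units on WT arrays 1, 2 and 3. For miR-125a-5p the KO arrays read 87.1, 69.0 and 68.1 units and the WT arrays 239, 91.0 and 145 units. miR-99b stood at 45.2, 43.7 and 39.5 units on the KO arrays and at 118, 57.6 and 76.8 units on the WT arrays. Before scaling, all 3 KO arrays lay below every WT array for each of these miRNAs, but so did those of 37 of the 135 tested miRNAs (27.4%), and none of the 135 had the opposite order. In each miRNA WT replicate 1 was the brightest array and WT replicate 3 the next.

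**Figure D1:**
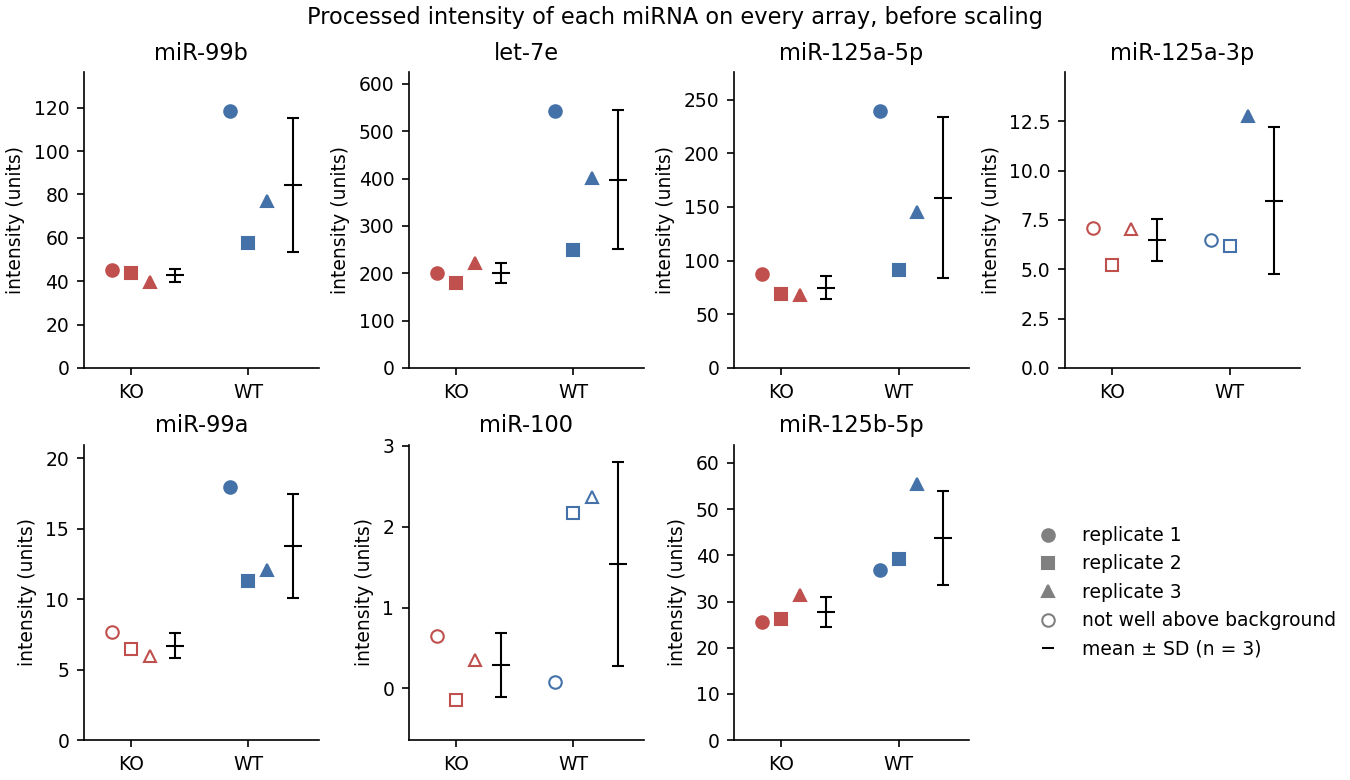
Processed intensity in scanner units (y axis, linear, a separate scale per panel) of the brighter probe of each of the 7 miRNAs on the 3 KO and 3 WT arrays. Marker shape gives the replicate, open markers arrays on which the miRNA was not well above background, and bars the mean ± SD (n = 3). WT replicate 1 is the highest array for miR-99b, let-7e, miR-125a-5p and miR-99a, but not for miR-125b-5p.

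Scaled for array brightness, let-7e stood at -0.19, -0.05 and -0.02 on the KO arrays, against 0.92, 0.04 and 0.19 on the WT arrays. The KO arrays lay just below the 2 lower WT arrays and did not overlap with them. miR-125a-5p was at -1.38, -1.43 and -1.73 in KO and at -0.27, -1.41 and -1.28 in WT samples, with KO replicate 1 above WT replicate 2. miR-99b was at -2.33, -2.09 and -2.52 in KO and at -1.28, -2.07 and -2.20 in WT samples, with KO replicate 2 above WT replicate 3. With this scaling let-7e was thus the 1 of the 5 tested cluster and paralog miRNAs with all KO arrays below all WT arrays, a pattern that 2.96% of the 135 tested miRNAs showed. The opposite order, which 7.41% of the 135 showed, occurred in none of the 5. In the deposited series matrix the groups met for let-7e, at 7.93 in KO replicate 3 and WT replicate 3. There miR-125a-5p (KO at most 6.46, WT at least 6.55), miR-99b (5.74 and 5.92) and miR-99a (2.84 and 3.11) did not overlap, and miR-125b-5p did. The share of all tested miRNAs without overlap in that matrix was not counted, so the lack of overlap cannot be read as particular to these miRNAs.

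None of the differences passed the test. limma, fitted over all 135 tested miRNAs with Benjamini-Hochberg adjustment, called 0 of them (0%). With this scaling limma's unadjusted p fell under 0.05 for 1 miRNA lower (0.741%) and 5 higher (3.7%) in KO, none of the 7 among them. Under other settings some of the 7 were among the lower ones, as given below. KO minus WT was -0.53 for miR-125a-5p (SE 0.30, 95% interval -1.21 to 0.15), -0.47 for let-7e (SE 0.24, interval -1.01 to 0.08) and -0.46 for miR-99b (SE 0.26, interval -1.05 to 0.13). The limma adjusted p was 0.637 for each. These were the differences ranked 2, 3 and 4 from the lowest of 135, while the median tested miRNA stood at 0.11. Relative to that median the 3 values were -0.64, -0.58 and -0.57.

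Their size rested on WT replicate 1. That array exceeded the mean of WT replicates 2 and 3 by 1.08 for miR-125a-5p, by 0.80 for let-7e and by 0.85 for miR-99b on the log2 scale. Among the 135 tested miRNAs these gaps ranked 2, 7 and 5, and the median gap was 0.07. Without WT replicate 1 the differences were -0.17 for miR-125a-5p, -0.18 for miR-99b and -0.20 for let-7e. Why this array differed was not tested.

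Both probes of each cluster miRNA gave nearly parallel profiles. The brighter probe of let-7e read 2.25 to 2.32 times the dimmer on the 6 arrays, an SD of 0.02 on the log2 scale. For miR-125a-5p that ratio was 2.09 to 2.29 (SD 0.04) and for miR-99b 1.81 to 2.19 (SD 0.10). The dimmer probes gave KO minus WT of -0.50 for let-7e, -0.49 for miR-125a-5p and -0.50 for miR-99b. Spots of the brighter probes on 1 array varied by 5.75% to 7.93% (coefficient of variation) for let-7e, by 2.77% to 8.01% for miR-99b and by 3.57% to 10.48% for miR-125a-5p, whose highest value was on WT replicate 1.

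**Figure D2:**
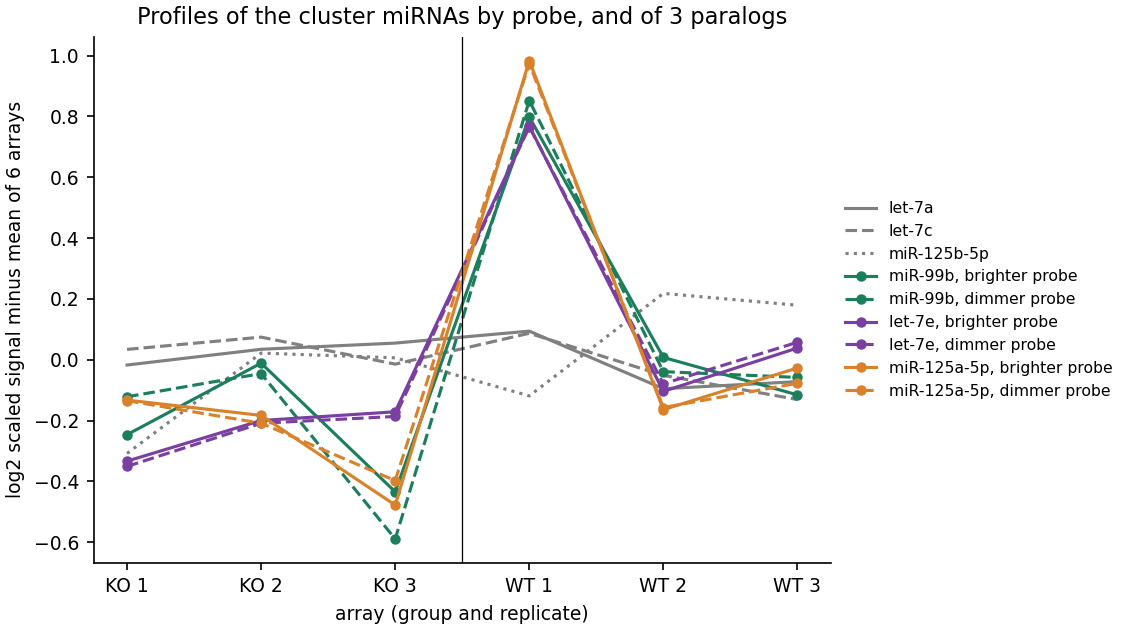
Log2 scaled signal minus its mean over the 6 arrays (y axis) by array (x axis, KO left of the line, WT right). Coloured lines are the brighter (solid) and dimmer (dashed) probes of the 3 cluster miRNAs, and grey lines let-7a, let-7c and miR-125b-5p. The 6 coloured lines run together and peak on WT replicate 1, where let-7a and let-7c are also highest but rise less and miR-125b-5p lies below its mean.

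The ratios of the 3 cluster mates varied less between arrays than those of most pairs, a comparison in which array brightness cancels. let-7e over miR-125a-5p was 2.29, 2.60 and 3.26 in KO and 2.27, 2.75 and 2.76 in WT samples. miR-99b over miR-125a-5p was 0.52, 0.63 and 0.58 in KO and 0.49, 0.63 and 0.53 in WT samples. For miR-99b over let-7e the values were 0.23, 0.24 and 0.18 in KO and 0.22, 0.23 and 0.19 in WT samples. The groups overlapped for all 3 ratios, and the KO minus WT differences of the log2 ratios were 0.06, 0.07 and 0.01 (two-sided exact permutation p = 0.9, 0.7 and 1). Over the 6 arrays these log2 ratios had SDs of 0.19, 0.15 and 0.17. The median over all 5565 pairs of 106 miRNAs above the floor on every array was 0.35, and 10.3%, 4.42% and 7.04% of pairs had a smaller SD. Pairs that share a miRNA are not independent, so these shares describe the arrays only. A low SD was not particular to the cluster. miR-99b over miR-99a, which is encoded on chromosome 16, had an SD of 0.15 from intensities without the floor. In that ratio miR-99a was not well above background on the KO arrays.

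The profiles of the cluster mates were also among the closest to each other. By the root-mean-square difference of log2 profiles over 6 arrays, each centred on its mean, miR-125a-5p was the nearest of 134 tested miRNAs to miR-99b (0.14), and let-7e was the next (0.16). miR-99b was in turn the nearest to let-7e and to miR-125a-5p. The 1 other miRNA among the nearest 3 in each case was miR-362-5p, at 0.20 from miR-99b, 0.17 from let-7e and 0.27 from miR-125a-5p. It lay at the floor on all 3 KO arrays and at -3.75, -4.19 and -4.27 on the WT arrays (KO minus WT -0.25, limma adjusted p = 0.637). Among the paralogs, miR-125b-5p ranked 60 for miR-99b, 52 for let-7e and 66 for miR-125a-5p. In the same order let-7a ranked 31, 21 and 32 and let-7c 28, 24 and 31. These paralogs were all nearer than the median miRNA, miR-125b-5p only by little (0.442 against 0.458, 0.407 against 0.441 and 0.534 against 0.537). miR-99a ranked 12, 7 and 11, with 5 of its 6 values at the floor.

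let-7e was next set against let-7a and let-7c, members of its seed family with genes beside miR-100 and miR-99a. let-7a is also encoded on chromosome 13, so its signal cannot be assigned to the gene beside miR-100. let-7a stood at 2.29, 2.34 and 2.36 in KO and at 2.40, 2.21 and 2.24 in WT samples, and KO minus WT was 0.05 (95% interval -0.29 to 0.39, limma adjusted p = 0.902). let-7c stood at 0.08, 0.12 and 0.03 in KO and at 0.14, -0.00305 and -0.08 in WT samples, with a difference of 0.06 (interval -0.28 to 0.41, limma adjusted p = 0.881). The ratio of let-7e over let-7a signal was 0.18, 0.19 and 0.19 in KO and 0.36, 0.22 and 0.24 in WT samples. let-7e over let-7c was 0.83, 0.89 and 0.96 in KO and 1.72, 1.03 and 1.20 in WT samples. In both ratios every KO array lay below every WT array. The log2 differences were -0.52 and -0.53 (two-sided exact permutation p = 0.1 each, adjusted p = 0.3 over 6 ratios). With 3 arrays in each group, 0.1 is the smallest p that such a test can reach. Without WT replicate 1 the differences were -0.31 and -0.32. In the series matrix the groups met for let-7e over let-7c, with a difference of -0.34 (exact permutation p = 0.2), and did not for let-7e over let-7a (-0.53, exact p = 0.1). Groups failed to overlap for 14.4% of all pairs. The 2 of 6 ratios without overlap here share let-7e, and how often 2 of 6 such ratios would separate was not counted.

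Set against every other miRNA above the floor, let-7e over its partner was lower on all KO arrays than on all WT arrays for 40 of 105 partners, miR-99b for 47 and miR-125a-5p for 37, and the opposite order occurred for 0 partners of each. Over both orders of all pairs that share was 7.22%. All ratios of a miRNA reuse its own 6 values, so the partners are not independent observations and the counts are descriptive. The paralog miR-125b-5p was lower against 21 of 105 partners (20%), with 0 in the opposite order. For let-7e the partners included 7 of the 8 other let-7 family members, for miR-125a-5p 6, for miR-99b 4 and for miR-125b-5p 1 (let-7a, let-7b, let-7c, let-7d, let-7f, let-7g, let-7i and miR-98). Those 8 had a median KO minus WT of 0.12 (range -0.07 to 0.31), close to the 0.11 of all tested miRNAs, with 7 higher and 1 lower in the fit and 0 past the limma threshold.

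**Figure D3:**
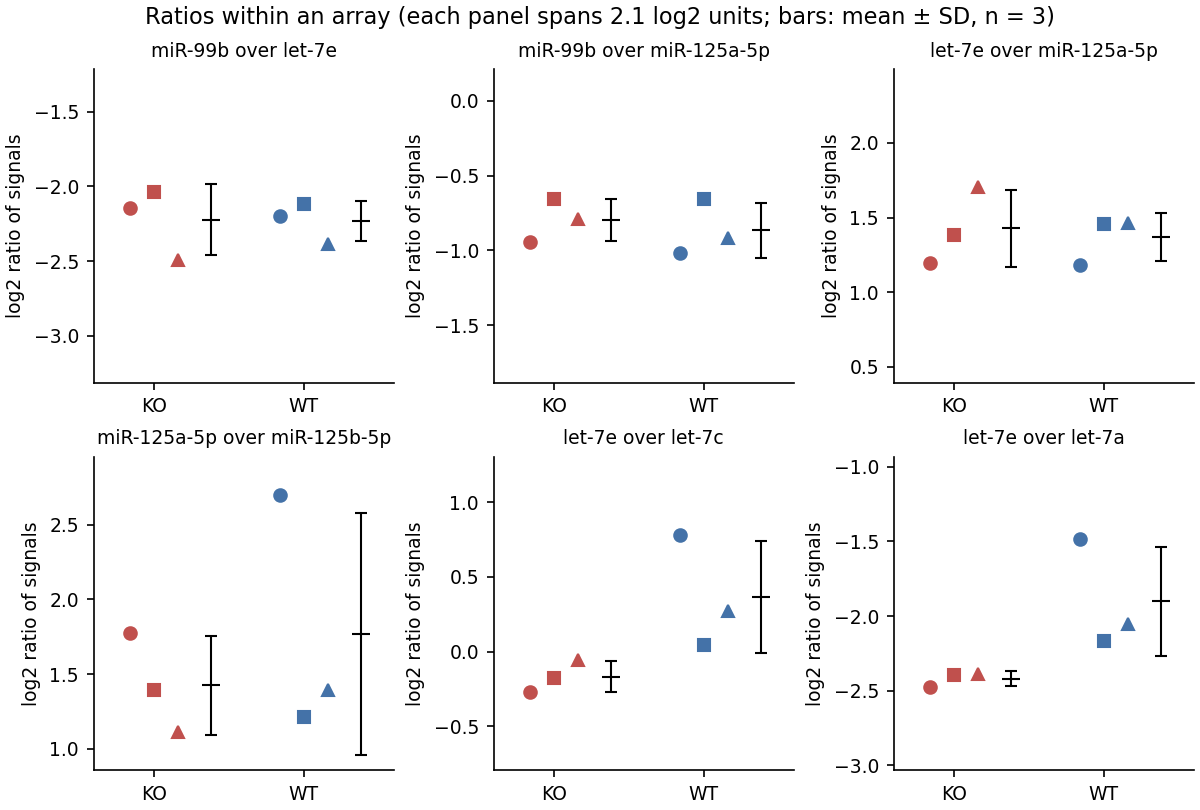
Log2 ratio of the signals of 2 miRNAs on 1 array (y axis, the same span in each panel) for KO and WT arrays. Marker shape gives the replicate and bars the mean ± SD (n = 3). The 3 cluster-mate ratios in the upper row overlap between groups, while let-7e over let-7c and over let-7a lies lower on all 3 KO arrays.

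The miR-125 paralogs were both measured on every array. miR-125b-5p read 25.5, 26.3 and 31.5 units on KO arrays and 36.8, 39.2 and 55.4 units on WT arrays, and only its brighter probe was well above background. After scaling it stood at -3.16, -2.83 and -2.84 in KO and at -2.97, -2.63 and -2.67 in WT samples. KO minus WT was -0.19 (SE 0.18, 95% interval -0.59 to 0.22, limma adjusted p = 0.702), or -0.30 relative to the median miRNA. Unlike the cluster miRNAs it was not raised on WT replicate 1, which lay 0.32 below the mean of the other WT arrays. Without that array its KO minus WT was -0.29, against -0.17 for miR-125a-5p, -0.18 for miR-99b and -0.20 for let-7e. With all arrays, quantile scaling gave -0.47 for miR-125b-5p and normexp 0.12. miR-125a-5p over miR-125b-5p was 3.42, 2.63 and 2.16 in KO and 6.50, 2.32 and 2.62 in WT samples. The log2 ratio differed by -0.34 (exact permutation p = 0.7), the groups overlapped, and without WT replicate 1 the difference was 0.12. These data therefore show no difference between the paralogs that is larger than the spread between arrays.

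Both arms of the Mir125a hairpin were on the array, and the 5p arm alone was well above background throughout. The hairpin is shown from RefSeq (GRCm38.p6, chr17:17830812-17830879, plus strand) with the 5p and the 3p arm in capitals.
Mir125a: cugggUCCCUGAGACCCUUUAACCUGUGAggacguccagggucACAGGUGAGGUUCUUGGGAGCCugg
The brightest of 4 probes for miR-125a-3p read 7.09, 5.24 and 7.05 units on KO arrays and 6.48, 6.20 and 12.8 units on WT arrays, below the floor on all 6. It was well above background on WT replicate 3 alone, with 3 of 5 spots, and on 0 KO arrays. The 5p arm was highest on WT replicate 1, and the 3p arm was not. With a 3p signal this close to background, no ratio of the arms is given and no difference in arm use can be read. Other arms on the array, miR-99b*, miR-125b* and miR-125b-3p, were well above background on none.

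The miR-99 paralogs were dim. miR-99a read 7.69, 6.45 and 5.95 units on KO arrays, none of them well above background, and 18.0, 11.3 and 12.0 units on WT arrays, all of them called well above background. The WT calls rested on 10 of 10 spots in replicate 1 but on 5 of 10 in replicates 2 and 3, the smallest number that counts as detection. The scanner software's own call listed miR-99a as detected on 1 KO and 3 WT arrays. After scaling it lay at the floor on all 3 KO and on 2 of 3 WT arrays, so the fitted difference of -0.11 (limma adjusted p = 0.776) came from WT replicate 1 alone. Against the dimmest signals called above background on KO arrays the bound for the WT level fell under 1, so no fold is given from that bound.

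miR-100 read 0.65, -0.14 and 0.35 units on KO arrays and 0.08, 2.17 and 2.36 units on WT arrays. It was well above background on 0 of 6 arrays. With miR-100 at background throughout and miR-99a at background on the KO arrays, no ratio among miR-99b, miR-99a and miR-100 is compared between genotypes.

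**Figure D4:**
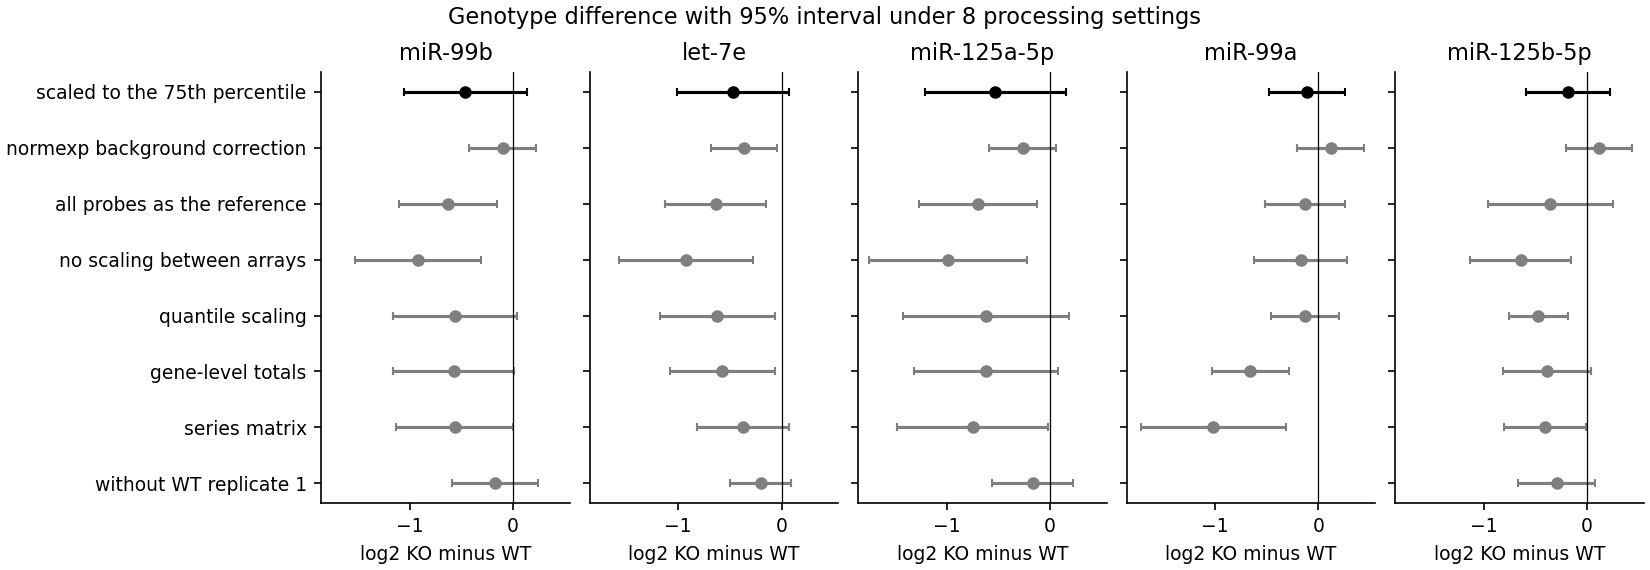
KO minus WT difference on the log2 scale (x axis) with its 95% limma interval for the 5 tested miRNAs under 8 settings (rows). Black is the value in the text. miR-99a has no value without WT replicate 1, since all its remaining arrays lay at the floor. Points for let-7e, miR-99b and miR-125a-5p lie below 0 in every row, and those for miR-99a and miR-125b-5p lie above 0 with normexp.

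The direction of the 3 cluster miRNAs held under the alternatives run, while size and interval moved with the scaling. With no scaling between arrays KO minus WT was -0.98 for miR-125a-5p, -0.92 for let-7e and -0.92 for miR-99b, where the median of all tested miRNAs was -0.31. With normexp background correction, which here added an offset of 50 units to each spot, the values were nearer to 0. They were -0.27 for miR-125a-5p, -0.36 for let-7e and -0.10 for miR-99b, against a median of 0.23. The limma adjusted p stayed between 0.135 and 0.809 for let-7e and miR-99b. Its range was 0.152 to 0.809 for miR-125a-5p.

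Since the design removes RBP-J, the RefSeq promoter window of Spaca6, the gene that contains the cluster, was searched for the RBP-J core motif GTGGGAA and its shorter form TGGGAA on both strands. The window (GRCm38.p6, chr17:17830725-17831024, plus strand) is shown with the match in capitals. It starts downstream of miR-99b and let-7e and overlaps the Mir125a hairpin, so it lies upstream of neither of those 2.
Spaca6: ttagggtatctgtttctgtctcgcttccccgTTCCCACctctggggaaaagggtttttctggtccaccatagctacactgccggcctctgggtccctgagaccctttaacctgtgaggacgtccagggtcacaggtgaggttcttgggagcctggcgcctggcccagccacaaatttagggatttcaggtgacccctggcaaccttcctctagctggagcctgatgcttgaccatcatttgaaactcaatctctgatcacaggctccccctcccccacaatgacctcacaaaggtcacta
GTGGGAA occurred once, on the opposite strand at bases 32 to 38 of the window, 55 bases before the first base of miR-125a-5p, and the 1 match of TGGGAA lies inside it. Of 32851 RefSeq promoter windows of this length, 6.38% hold GTGGGAA and 25.6% hold TGGGAA on either strand. The window of Mir99ahg, a long non-coding RNA gene named after miR-99a, held neither, and of the windows of Mir100hg 1 held TGGGAA alone. A match is a run of letters and not a measured binding site.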

How the data were processed

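Total RNA was Cy3-labelled and hybridised to 1-colour Agilent mouse miRNA arrays, 6 arrays on 1 slide. Per the file headers, the deposited spot intensities are processed signals of Agilent Feature Extraction 10.5.1.1, while the submitters' processing notes name version 9.1. They are not normalized between arrays. The deposited gene-level files give a total intensity for each miRNA. The deposited series matrix holds log2 values with equal upper quartiles (2.71) and maxima (14.74) and medians of 0 to 0.03. Its processing is not stated in the sources used here. Its columns follow log2 of the totals (r of 0.999 or more, per array, for totals above 5 units). miRNAs were not centred in it.

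Each of 1759 mouse probes was summarised as the median over its spots, leaving out those marked as outliers. A probe counted as well above background when at least 50% of its spots carried that flag. To scale arrays, the 75th percentile over probes detected on every array was used as divisor. A floor stood at the 5th percentile of detected signals (log2 of -4.32), and a miRNA took its brightest probe. No miRNA spot was saturated. Genotypes were compared with limma 3.58.1 in R 4.3.3, without covariates and with Benjamini-Hochberg adjustment at 0.05, over 135 miRNAs. For ratios within an array the test was an exact permutation over arrays, two-sided. Precision is limited by how many arrays there are. The miRNAs, lists, ratios and motif were chosen with earlier results of these data known. All 7 miRNAs were named by rule, with the other arms of their hairpins, let-7a, let-7c and the nearest profiles. Normexp, as an alternative, took median spot signals and added an offset of 50 units before scaling.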

Additional observations from a re-analysis of the deposited data

How the results depend on the processing

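Alternatives covered background correction, percentile, scaling, floor, probe rule, totals, series matrix, filter, blocks, variance model and each array left out; the dimmer probe and slide column 1 alone were chosen after seeing the data. limma called 0 miRNAs in every one. At an unadjusted p under 0.05 it counted 1 lower and 5 higher as reported, 26 lower and 0 higher with no scaling, 5 and 0 when all probes set the percentile, 6 and 1 with gene-level totals, 8 and 1 both in the series matrix and after quantile scaling, and 3 and 26 with normexp. let-7e, miR-99b and miR-125a-5p kept their sign throughout. Leaving out each array gave -0.63 to -0.18 for miR-99b, -0.64 to -0.20 for let-7e, -0.74 to -0.17 for miR-125a-5p and -0.29 to -0.08 for miR-125b-5p. For miR-99a it gave -0.16 to -0.11, and no value without WT replicate 1. All arrays of miR-99a but that one lay at the floor, so its range follows from the floor and does not measure stability. With normexp and its offset of 50 units the sign turned for miR-99a (0.12) and miR-125b-5p (0.12). Relative to the median miRNA, -0.12 and -0.11, it did not. The share of the offset in this was not tested. miR-99a was -1.02 in the series matrix.

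The differences in the log2 ratios of cluster mates changed sign and size with the processing, and the largest were 0.38 for let-7e over miR-125a-5p in the series matrix (0.06 as reported) and 0.26 for miR-99b over let-7e with normexp (0.01 as reported). miR-99b over let-7e turned with gene-level totals (-0.0040), the series matrix (-0.19) and the dimmer probes (-0.0070), and ran from -0.0839 to 0.14 when an array was left out. miR-99b over miR-125a-5p turned with the dimmer probes (-0.0104) and ran from -0.0077 to 0.17 when an array was left out. let-7e over miR-125a-5p turned with normexp (-0.10) and the dimmer probes (-0.0034), and ran from -0.0789 to 0.17. Leaving out each array, miR-125a-5p over miR-125b-5p ran from -0.62 to 0.12, let-7e over let-7c from -0.69 to -0.32 and let-7e over let-7a from -0.65 to -0.31. The other alternatives gave -0.42 to -0.15, -0.70 to -0.34 and -0.80 to -0.36 for these 3. The software's detection call moved miR-125a-3p to 1 KO and 2 WT arrays and miR-99a to 1 KO array.

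KO and WT samples share replicate numbers, but deviations of equal numbers correlated at 0.17, -0.07 and 0.37, so the numbers were not taken as pairs. With the replicate number as a block, limma gave adjusted p = 0.515 for miR-99b (difference -0.46), 0.515 for let-7e and 0.485 for miR-125a-5p, and 0 calls. Within slide column 1, which held replicates 1 and 2, the differences were -0.53 for miR-99b, -0.60 for let-7e and -0.57 for miR-125a-5p. Signal over background limits miR-99a, miR-100 and miR-125a-3p. Without the filter on dim signals, miR-100 and miR-125a-3p lay at the floor on every array and gave no value, as did the dimmer probes of miR-99a and miR-125b-5p.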
